A study of Homo sapiens with 36 samples.

Results

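A set of 10 genes of microRNA production and of the LIN28/let-7 axis was followed through the treatment of a Wilms tumor cell line with actinomycin D. They were picked by symbol: DROSHA, DGCR8, XPO5, DICER1, TARBP2, AGO2, LIN28A, LIN28B, DIS3L2 and HMGA2. After the version number was removed from the Ensembl identifiers and GENCODE release 29 symbols were attached, all 10 were found among the 58219 genes listed in each RNA table and the 43582 listed in each ribosome footprint table. The cells were WiT49, a line from an anaplastic Wilms tumor (a kidney tumor of childhood), without any engineered change named in the labels. They received 2 nM actinomycin D (actD), an antibiotic that binds DNA and can block transcription, or its solvent DMSO. Exposure lasted 6 h, 72 h or 2 weeks, and the 2-week course was made of 2 rounds of 7 days in which the additive was present for 3 days and plain medium followed for 4. Total RNA and ribosome footprints (the short RNA pieces that ribosomes shield from nuclease) were sequenced from 3 libraries of each treatment at each time, 36 in all. For the 2-week RNA the title of each sample contradicts its library name on the treatment. The library names are followed here, as "named actd" and "named dmso". Every RNA and translational efficiency value at 2 weeks takes these names, and every RNA difference at 2 weeks would change its sign if the titles were right. The labels do not say that replicates came from separate cultures, so the p-values measure the spread between these libraries of a single line, which may be technical.

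MicroRNAs are short RNAs that base-pair with messenger RNAs and reduce their translation and stability. In the nucleus, DROSHA and its RNA-binding partner DGCR8 cut hairpins out of primary transcripts, XPO5 carries the hairpins to the cytoplasm, DICER1 with TARBP2 trims them to duplexes, and AGO2 holds the mature strand and finds the targets. LIN28A and LIN28B bind the precursors of the let-7 family, and LIN28A recruits enzymes that add uridines. The exonuclease DIS3L2 degrades the uridylated precursors, and HMGA2, a chromatin protein of embryonic and tumor cells, is a classical let-7 target. Several of these genes are mutated in Wilms tumors, DIS3L2 is lost in Perlman syndrome, which predisposes to this tumor, and LIN28B is often highly expressed in it.

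The let-7 family is the RNA on which LIN28, DIS3L2 and HMGA2 converge, so its mature strands are shown first. The 12 loci searched for in the RefSeq table (GRCh38.p14) carry 9 distinct 5p strands, printed 5′ to 3′ with the seed (bases 2 to 8, which pair with the target) in capitals. MIRLET7A1, MIRLET7A2 and MIRLET7A3 share the first strand and MIRLET7F1 and MIRLET7F2 share the let-7f strand. The example of let-7a is read from chr9:94175962-94175983, plus strand.
let-7a: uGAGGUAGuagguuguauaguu
let-7b: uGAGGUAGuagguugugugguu
let-7c: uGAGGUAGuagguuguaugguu
let-7d: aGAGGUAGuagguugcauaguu
let-7e: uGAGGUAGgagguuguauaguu
let-7f: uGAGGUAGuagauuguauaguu
let-7g: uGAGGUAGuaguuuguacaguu
let-7i: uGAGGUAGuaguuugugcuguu
miR-98: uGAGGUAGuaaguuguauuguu
The seed was the same in all 9 strands, and 11 of the 2370 mature human microRNAs in the table had it. Outside the seed, let-7c, let-7e and let-7f differed from let-7a at 1 position, let-7b, let-7d, let-7g and miR-98 at 2, and let-7i at 4.

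LIN28 proteins are known to bind a GGAG motif in the let-7 precursor, so the hairpins were searched for these 4 letters on the transcribed strand. The motif was present in 9 of the 12 let-7 hairpins and absent from the letters of MIRLET7A3, MIRLET7B and MIR98. Over all 1562 human hairpins of the table, 43.4% held it, and 43.0% of the 1090 hairpins between 72 and 119 bases, the lengths of the let-7 hairpins. A hairpin with the motif (capitals) and one without it are shown, from chr3:52268278-52268361, minus strand, and chr22:46112749-46112822, plus strand.
MIRLET7G: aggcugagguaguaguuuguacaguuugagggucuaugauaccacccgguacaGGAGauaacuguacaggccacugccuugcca
MIRLET7A3: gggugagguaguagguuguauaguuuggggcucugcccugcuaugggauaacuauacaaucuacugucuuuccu

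The complement of the seed, CTACCTC, was then looked for in the 3′ UTR of the principal GENCODE transcript of each of the 10 genes, on the transcribed strand. HMGA2 held 4 sites in 3003 bases and LIN28B 4 in 4549. As many sites were found in 0.1% of the 2012 genes with a 3′ UTR of like length to that of HMGA2 and in 0.2% of the 1285 genes with one of like length to that of LIN28B. AGO2 held 2 sites, a number reached by 17.6% of the genes of like length, and LIN28A and TARBP2 held 1 each, against 16.8% and 2.1% of the genes of like length with a site. DROSHA, DGCR8, XPO5, DICER1 and DIS3L2 held none. Over all lengths, 8.6% of 18905 genes had a site. These matches are descriptions of letters, not of binding. The sites of HMGA2, LIN28B and LIN28A are printed with 15 bases before and 1 base after the match (GRCh38). The first HMGA2 site lies at chr12:65963298-65963320, the first LIN28B site at chr6:105078812-105078834 and the LIN28A site at chr1:26427348-26427370, all on the plus strand.
HMGA2 site 1: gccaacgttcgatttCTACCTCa
HMGA2 site 2: ccccactactcaataCTACCTCt
HMGA2 site 3: ttgacttgcaaagacCTACCTCc
HMGA2 site 4: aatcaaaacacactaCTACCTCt
LIN28B site 1: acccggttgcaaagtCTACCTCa
LIN28B site 2: tactgatgatagtaaCTACCTCt
LIN28B site 3: gtttacagcaaaaggCTACCTCa
LIN28B site 4: aaatgatggtgttgaCTACCTCt
LIN28A site 1: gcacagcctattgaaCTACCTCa
An A after the match, which is known to strengthen microRNA sites in general, followed 1 of the 4 HMGA2 sites, 2 of the 4 LIN28B sites and the LIN28A site.

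RNA libraries held 40221994 to 69240041 counts, and footprint libraries 152556 to 1281039, of which 23134 to 283435 fell on protein-coding genes. Among nephron progenitor and blastema markers, WT1, NCAM1 and LHX1 had a mean of at least 1 CPM (library-scaled counts per 1e6) in each RNA table, and SIX2, CITED1, PAX2, EYA1, SALL1 and PAX8 lay under 1 CPM in every library. COL1A1, a fibroblast collagen, was at 346 to 818 CPM and COL1A2 was listed at 0 throughout, while the muscle factors MYOD1 and MYOG were listed at 0, the muscle filament gene DES was at 6.27 to 10.7 CPM and endothelial markers summed to at most 1.28 CPM. Mitochondrial ribosomal RNA took 15.5% to 22.5% of the counts in DMSO and 24.6% to 32.3% in actD at 72 h, and 19.7% to 22.9% against 25.8% to 31.2% in the 2-week RNA libraries named dmso and actd. It took 7.28% to 8.54% in DMSO and 7.30% to 8.19% in actD at 6 h. Fibroblast markers summed to 412 to 531 CPM in DMSO and 507 to 833 CPM in actD at 72 h, and to 387 to 505 CPM and 542 to 650.2 CPM in the 2-week RNA libraries named dmso and actd, with COL1A1 the main part. What part these shifts had in the results below was not tested.

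None of the 10 genes passed the test in RNA at any time. By edgeR's quasi-likelihood test with adjustment over all genes, 0 of 10 were called at 6 h, against 0.0% of 22669 genes tested, 0 of 10 at 72 h, against 0.00472% of 21195, and 0 of 10 at 2 weeks, against 0.0% of 21137. DESeq2 also called 0 of 10 at each time. At an unadjusted p under 0.05, 2 of the 10 were lower at 6 h (8.21% of all genes in either direction), 2 were lower and 1 higher at 72 h (13.1%), and 1 was lower at 2 weeks (8.93%). The libraries of the groups did not overlap for 3 of the 10 at 6 h, all lower with actD (15.8% of all genes in either direction), for 1 higher and 1 lower at 72 h (20.9%), and for 2 at 2 weeks, both lower in the libraries named actd (15.7%). The median log2 difference of the 10 was -0.12 at 6 h, -0.10 at 72 h and -0.09 at 2 weeks, and that of all genes tested 0.02, 0.02 and -0.02. Fewer cells with an RNA and less of the RNA per cell cannot be told apart in such bulk libraries. DROSHA, XPO5 and DIS3L2 had negative differences at all 3 times, with the library names followed at 2 weeks. The share of all genes with negative differences at all 3 times was not counted. The text below follows the members by role.

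**Figure D1:**
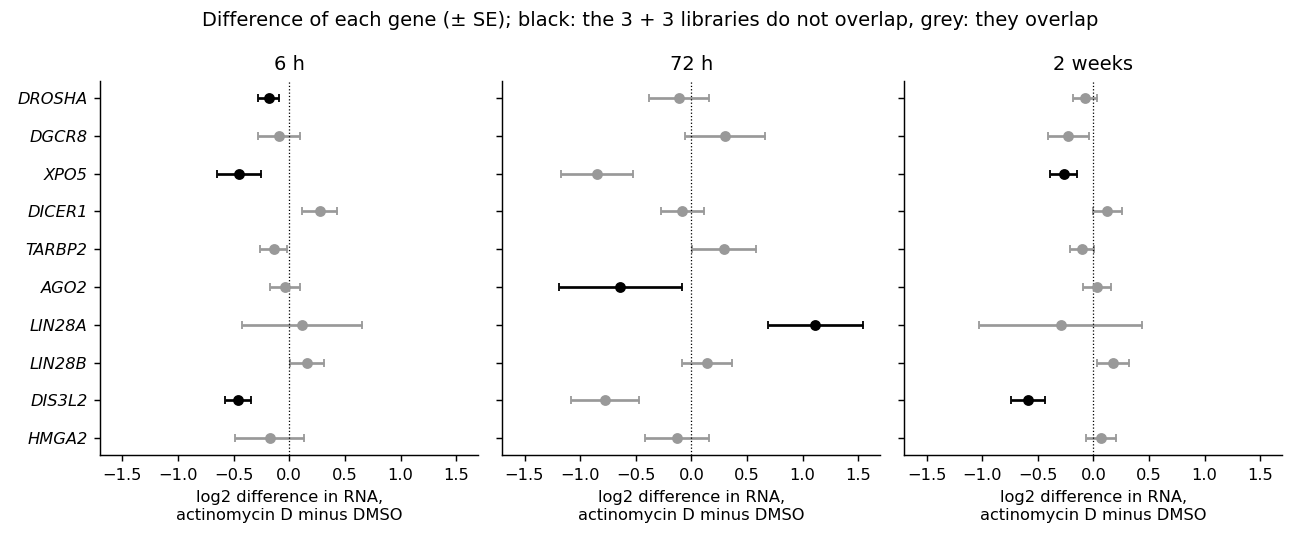
Difference in RNA between actD and DMSO (log2, ± SE) for the 10 genes at 6 h, 72 h and 2 weeks (named actd minus named dmso), with 3 libraries a group. Black points mark genes whose 6 libraries do not overlap between the groups. DROSHA, XPO5 and DIS3L2 lie left of 0 in every panel, LIN28A lies at 1.12 at 72 h, and AGO2 has the widest bar of the 72 h panel (SE 0.55).

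DROSHA, the nuclease of the Microprocessor (ENSG00000113360.16, chr5:31400497-31532196, minus strand), was measured at 6 h in actD at 81.9, 81.0 and 81.5 CPM and in DMSO at 93.2, 91.1 and 93.5 CPM. The groups did not overlap, and the libraries within each lay close together. The log2 difference was -0.19 (SE 0.10, edgeR adjusted p = 0.67). At 72 h the actD libraries ranged from 55.4 to 85.1 CPM and the DMSO libraries from 53.9 to 95.1, with a difference of -0.11 (SE 0.27), and at 2 weeks the difference was -0.07 (SE 0.11). The groups overlapped at both later times.

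DGCR8, the RNA-binding subunit that anchors the hairpin (ENSG00000128191.15, chr22:20080232-20111877, plus strand), was at 40.9, 41.3 and 25.3 CPM with actD and 36.4, 38.6 and 39.8 CPM with DMSO at 6 h. A single library, actD replicate 3, made the actD mean lower. The log2 differences were -0.09 (SE 0.19) at 6 h, 0.30 (SE 0.36) at 72 h and -0.22 (SE 0.19) at 2 weeks, and the groups overlapped each time. At 72 h its level varied within the groups, from 9.40 to 20.5 CPM in DMSO and from 11.5 to 23.1 CPM in actD.

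XPO5, the nuclear exporter of precursor hairpins (ENSG00000124571.17, chr6:43522330-43576075, minus strand), was lower with actD at 6 h, at 115, 119 and 71.5 CPM against 145, 145 and 128 CPM. The groups did not overlap, and the lowest value was again actD replicate 3. The log2 difference of -0.45 (SE 0.19) had an unadjusted p of 0.0472 and an edgeR adjusted p of 0.602, and without that library it was -0.25. At 72 h the actD libraries held 39.5, 44.5 and 77.0 CPM and the DMSO libraries 105, 118 and 67.5 CPM. Here replicate 3 of each group crossed over, so that the groups overlapped although the difference was larger, at -0.85 (SE 0.32, unadjusted p = 0.0323, edgeR adjusted p = 0.344). Without actD replicate 3 it was -1.20 (edgeR adjusted p = 0.198). At 2 weeks the libraries named actd held 101, 80.4 and 83.0 CPM and those named dmso 110.3, 104 and 103 CPM, which did not overlap, for a difference of -0.27 (SE 0.12, edgeR adjusted p = 0.573). XPO5 shares 348 exon bases with POLR1C on the other strand, which had 641 to 1724 counts per RNA library against 2012 to 9393 for XPO5, and whether strand was used in counting is not given in the sources used here.

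DICER1, the cytoplasmic nuclease that releases the duplex (ENSG00000100697.14, chr14:95086228-95158010, minus strand), was at 245, 195 and 272 CPM with actD and 193, 222 and 174 CPM with DMSO at 6 h. The groups overlapped, with a log2 difference of 0.27 (SE 0.16, edgeR adjusted p = 0.707). The differences at 72 h and 2 weeks were -0.08 (SE 0.20) and 0.13 (SE 0.13), also with overlap. TARBP2, the double-stranded RNA-binding partner of DICER1 (ENSG00000139546.10, chr12:53500921-53506431, plus strand), is the shortest of the 10 genes at 5.5 kb. Its groups overlapped at every time, at 27.1 to 30.3 CPM with actD and 29.5 to 36.0 CPM with DMSO at 6 h, and its log2 differences were -0.14 (SE 0.12), 0.29 (SE 0.29) and -0.10 (SE 0.11) at 6 h, 72 h and 2 weeks.

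AGO2, the effector that carries the mature strand (ENSG00000123908.11), was at 210.1, 208 and 263 CPM with actD and 229.5, 215 and 255 CPM with DMSO at 6 h, and its log2 difference was -0.04 (SE 0.14). At 72 h it was at 157, 144 and 27.3 CPM with actD and 183, 171 and 157 CPM with DMSO. The groups were apart there only by the gap between 156.7 CPM in actD replicate 1 and 157.0 CPM in DMSO replicate 3, and actD replicate 3 stood far below all others, with 1516 counts and 0.174 of the median of the other 5 libraries. The difference of -0.64 (SE 0.55, edgeR adjusted p = 0.647) became -0.18 (SE 0.18) without that library. At 2 weeks AGO2 was at 124, 118 and 124 CPM in the libraries named actd, within the range of those named dmso, with a difference of 0.03 (SE 0.13).

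The 2 LIN28 paralogs were far apart in level. LIN28B (ENSG00000187772.7, chr6:104936616-105083332, plus strand) had 7111 to 22916 counts per RNA library, and LIN28A (ENSG00000131914.10, chr1:26410778-26429722, plus strand) 4 to 117. Per kb of exon, LIN28B was 191 to 1100 times LIN28A in the 6 h libraries (median 293), 106.9 to 468 times at 72 h (median 198) and 236 to 1473 times at 2 weeks (median 474). One sequenced fragment was worth about 2.7 counts in the 6 h and 2-week RNA tables, so that the lowest LIN28A values there, 10 and 4 counts, rest on very few fragments. No footprint of LIN28A was counted in any of the 18 footprint libraries. A count of 0 allows up to 3 counts, which is 3.06 to 7.94 CPM at 6 h, 3.57 to 37.3 CPM at 72 h and 2.70 to 4.65 CPM at 2 weeks, and covers counting error only.

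LIN28A was the one gene of the 10 with a positive difference at an unadjusted p under 0.05. At 72 h it had 97, 117 and 71 counts (1.90, 2.16 and 1.28 CPM) with actD and 35, 51 and 29 counts (0.935, 1.13 and 0.420 CPM) with DMSO. All actD libraries lay above all DMSO libraries, by 1.12 on the log2 scale (SE 0.43, unadjusted p = 0.0335, edgeR adjusted p = 0.344), and by 0.78 to 1.41 when any 1 library was left out. At 6 h the groups overlapped at 0.170 to 0.809 CPM with actD and 0.343 to 0.602 CPM with DMSO, with a difference of 0.11 (SE 0.54), and at 2 weeks it was -0.29 (SE 0.73). LIN28B overlapped between the groups at each time: at 72 h it was at 377, 346 and 413 CPM with actD and 430, 304 and 294 CPM with DMSO. Its log2 differences were 0.16 (SE 0.15), 0.14 (SE 0.22) and 0.18 (SE 0.15) at 6 h, 72 h and 2 weeks.

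DIS3L2, the exonuclease for uridylated let-7 precursors (ENSG00000144535.19, chr2:231961245-232344350, plus strand), was the gene of the 10 with the smallest unadjusted p at 6 h and at 2 weeks. It spans 383.1 kb, the longest of the 10. At 6 h it was at 23.2, 22.2 and 20.7 CPM with actD and 29.3, 28.0 and 33.8 CPM with DMSO. Every actD library lay below every DMSO library, by 0.46 on the log2 scale (-0.46, SE 0.12, unadjusted p = 0.00493, edgeR adjusted p = 0.433). At 72 h it was at 7.12, 7.57 and 12.4 CPM with actD and 14.7, 19.6 and 12.2 CPM with DMSO. As for XPO5, replicate 3 of each group made the groups overlap, and the difference was -0.78 (SE 0.30, unadjusted p = 0.0344, edgeR adjusted p = 0.345). At 2 weeks it was at 22.9, 19.5 and 17.1 CPM in the libraries named actd and 33.8, 30.4 and 25.1 CPM in those named dmso. These groups did not overlap, and the difference was -0.59 (SE 0.16, unadjusted p = 0.00529, edgeR adjusted p = 0.425).

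The DIS3L2 difference kept its sign in each of the 18 fits that left out a library, between -0.53 and -0.38 at 6 h, between -1.08 and -0.58 at 72 h and between -0.69 and -0.49 at 2 weeks. At 6 h and 2 weeks its groups did not overlap, so leaving out any single library could hardly turn the sign. XPO5, TARBP2 and LIN28B also kept their sign at each time in all such fits. In a fit over all 18 RNA libraries at once, which estimates one spread for all times, DIS3L2 passed the threshold at 72 h (-0.79, edgeR adjusted p = 0.0424), as did 1408 of the 24803 genes of that fit. With mitochondrial genes left out before scaling, the differences at 72 h were -0.79 for DIS3L2 and -0.86 for XPO5. A processed pseudogene on the same strand, AC068134.3, shares 559 exon bases with DIS3L2 and had 47 to 304 counts per RNA library against 363 to 2167 for DIS3L2, so the split of reads between them is uncertain.

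HMGA2, the let-7 target (ENSG00000149948.13, chr12:65824131-65966295, plus strand), overlapped between the groups at all times. At 6 h it was at 375, 176 and 465 CPM with actD and 348, 421 and 379 CPM with DMSO. Replicate 2 of actD was at 0.463 of the median of the other 5 libraries, and the log2 difference of -0.18 (SE 0.31) was 0.13 without it. At 72 h the libraries ranged from 302 to 445 CPM with actD and from 290.5 to 543 CPM with DMSO, a difference of -0.13 (SE 0.29), and at 2 weeks the difference was 0.07 (SE 0.13). An antisense gene, AC090673.1, shares 384 exon bases with HMGA2 and had 184 to 1816 counts per RNA library, against 11064 to 27299 for HMGA2.

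**Figure D2:**
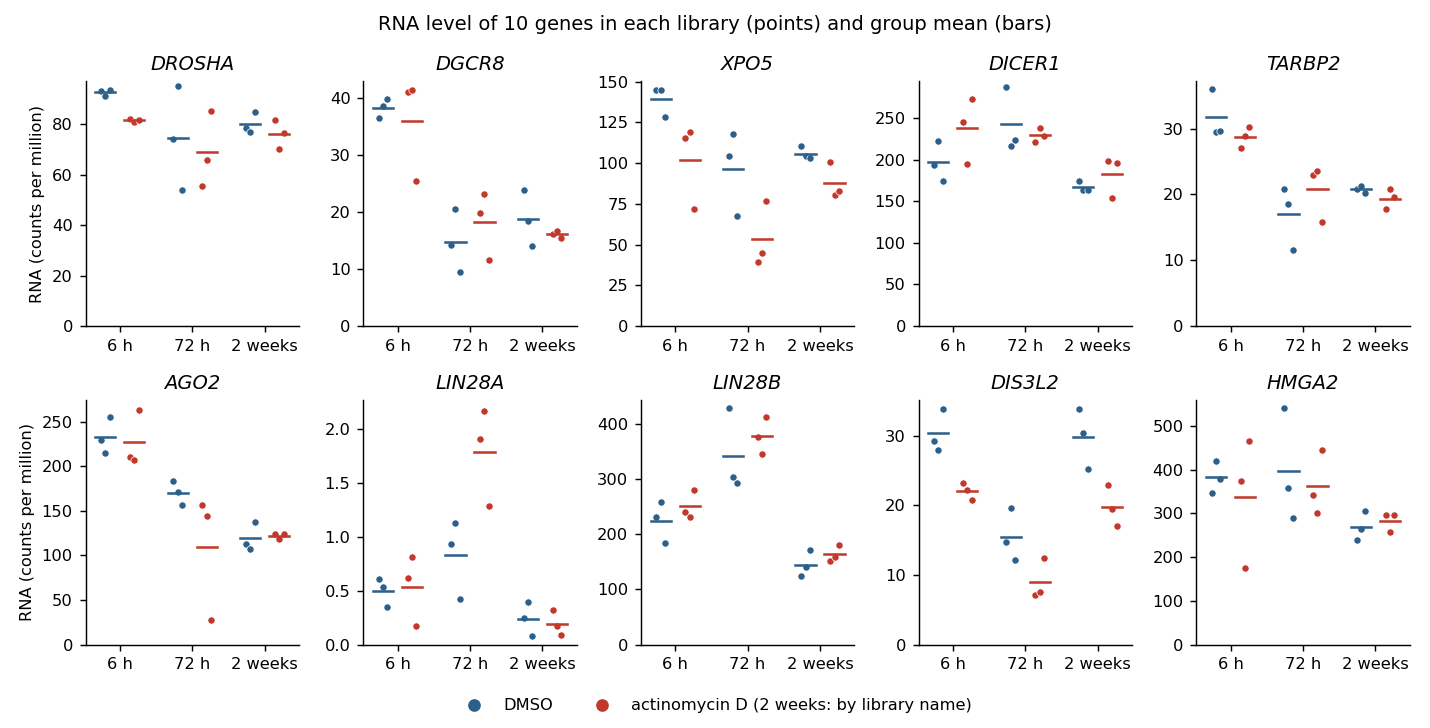
RNA level (CPM, axis from 0) of each of the 10 genes in every library, as points, with group means as bars, at 6 h, 72 h and 2 weeks (blue DMSO or named dmso, red actD or named actd). The groups lie apart for DIS3L2 at 6 h and 2 weeks, XPO5 at 6 h and 2 weeks, DROSHA at 6 h and LIN28A at 72 h (and barely for AGO2 at 72 h), and a single low library is seen for AGO2 at 72 h (27.3 CPM) and HMGA2 at 6 h (176 CPM). Levels are comparable within a time, since each time has a table of its own.

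Whether the effect of actD on RNA differed between 72 h and 6 h was tested directly as the treatment-by-time interaction. None of the 10 genes passed, by edgeR's quasi-likelihood test, against 0.0165% of 24251 genes, and 0 of 10 had an unadjusted p under 0.05. DESeq2 called 0 of 10. The largest differences of differences were 0.99 for LIN28A (SE 0.73, edgeR adjusted p = 0.771), -0.61 for AGO2 (SE 0.62, edgeR adjusted p = 0.845), 0.42 for TARBP2 (SE 0.32) and -0.41 for XPO5 (SE 0.41). That of DIS3L2 was -0.33 (SE 0.33). For XPO5 and DIS3L2 the 72 h difference was further from 0 than the 6 h one, and this gap did not pass the test.

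To order the genes by level, RNA counts were divided by the protein-coding total of the library and by the length of the merged exons, and are given as mean ± SD over the 6 libraries of a time, both treatments included. At 6 h LIN28B was highest, at 53.0 ± 5.83 CPM per kb, above 96.3% of protein-coding genes, and its libraries did not overlap those of the next gene. HMGA2 followed at 31.2 ± 8.25, DICER1 at 23.6 ± 3.64, AGO2 at 19.5 ± 1.94, XPO5 at 19.0 ± 4.36 and DROSHA at 14.99 ± 1.24, and neighbours among these 5 overlapped. TARBP2 (9.88 ± 0.813), DGCR8 (6.82 ± 1.31), DIS3L2 (3.10 ± 0.651) and LIN28A (0.172 ± 0.0769) came below, each apart from its neighbours. LIN28B was above 98.1% of protein-coding genes at 72 h and 95.7% at 2 weeks, and LIN28A above 37.8% and 25.5%. At 72 h the levels ran from 97.3 ± 16.3 for LIN28B to 1.72 ± 0.585 for DIS3L2 and 0.542 ± 0.300 for LIN28A, and at 2 weeks from 43.9 ± 5.08 to 3.74 ± 1.02 and 0.0926 ± 0.0540. The order of LIN28B and HMGA2 rests on the merged lengths, 6002 bases for LIN28B and 15403 for HMGA2. Before division by length, the 6 h mean of HMGA2 was above that of LIN28B. It was 338 against 251 CPM with actD and 382 against 225 CPM with DMSO.

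In footprints, summed over the 6 libraries of a time and divided by coding length, HMGA2 was the highest of the 10 in the summed counts, at 369 CPM per coding kb at 6 h, 76.7 at 72 h and 399.7 at 2 weeks, above 98.3%, 92.5% and 98.7% of protein-coding genes. LIN28B, first in RNA per kb, was at 31.3, 58.4 and 48.0. HMGA2 and LIN28B had close counts in single libraries at 72 h, 18 and 19 in actD replicate 3 and 6 each in DMSO replicate 2, and at 6 h DMSO replicate 3 had 1 HMGA2 count, so the order does not hold in each library. Footprints per RNA were therefore at 11.8 for HMGA2 and 0.590 for LIN28B at 6 h, against a median of 1.17 over 11464 genes. HMGA2 stood above 95.9% of these genes at 6 h, 57.1% of 11282 at 72 h and 96.5% of 11784 at 2 weeks, and LIN28B above 39.4%, 31.0% and 37.4%. DROSHA was low on this measure (above 31.9%, 24.8% and 28.7%), and DGCR8 (88.1%, 84.2% and 90.6%) and DIS3L2 (84.4%, 74.7% and 85.0%) were high. Genes without any footprint made up 29.6%, 15.4% and 16.7% of the genes ranked at 6 h, 72 h and 2 weeks, so the ranks of different times have unlike bases. These ratios are descriptions from few counts: 2 to 6 per time for TARBP2 and 4 to 168 for the other genes with footprints. The merged exons of all transcripts (15403 bases for HMGA2, of which 792 are coding) make RNA per kb smaller than for any single transcript. The footprints per RNA of HMGA2 and its rank on them depend on this length.

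**Figure D3:**
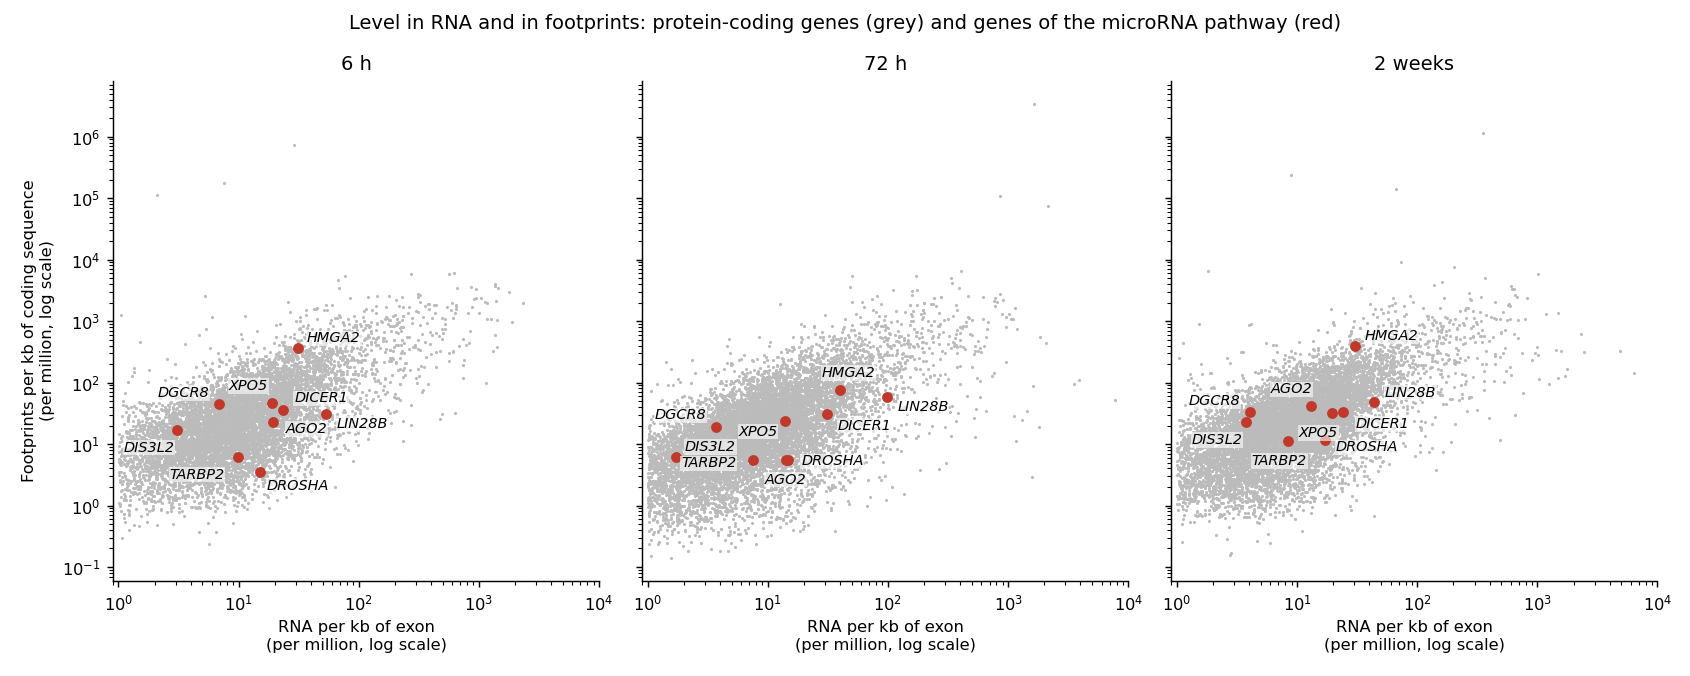
RNA per kb of exon against footprints per kb of coding sequence (both CPM of protein-coding counts, log axes) at 6 h, 72 h and 2 weeks, for protein-coding genes with RNA of at least 1 and a footprint (grey) and the genes of the microRNA pathway (red); LIN28A, under 1 and without footprints, is not drawn. HMGA2 lies near the upper edge at 6 h and 2 weeks (369 and 399.7 footprints per coding kb) and nearer the middle at 72 h (76.7), and LIN28B lies furthest right among the red points.

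The footprint libraries allowed few tests of these genes. At 6 h only HMGA2 passed the filter on low counts, at 72 h HMGA2, DICER1 and XPO5, and at 2 weeks HMGA2 and DICER1. Members that passed had the more counts, so they do not stand for all 10. By edgeR's test 0 of 1 were called at 6 h (0.0% of 1212 genes), 0 of 3 at 72 h (3.79% of 2426, or 92 genes, which became 0 to 282 when 1 library was left out) and 0 of 2 at 2 weeks (0.0% of 1598), and DESeq2 called 0 at each time. At 72 h, 1 of 3 had an unadjusted p under 0.05 (27.3% of all tested), and the groups did not overlap for the same gene, XPO5 (35.7% of all tested).

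XPO5 footprints at 72 h numbered 11, 6 and 21 with actD and 24, 13 and 4 with DMSO, in libraries of unequal depth. Scaled, they were 16.4, 16.3 and 25.0 CPM against 54.3, 43.6 and 49.7 CPM. Every actD library was below every DMSO library, with a log2 difference of -1.31 (SE 0.33, unadjusted p = 0.00406, edgeR adjusted p = 0.0665). XPO5 passed the filter on low counts by its DMSO libraries, where it was higher, and not by its actD libraries alone. The filter thus favored a negative difference, so neither the separation nor the p-value is independent of it. Without actD replicate 3 the difference of -1.48 passed the threshold (edgeR adjusted p = 0.0436), and over the other 5 fits without 1 library the adjusted p was 0.0902 to 0.27. The DMSO library with 4 counts was the shallowest, and without it the difference was -1.28. Mitochondrial ribosomal RNA took 12.4% to 21.0% of the footprint counts in actD and 4.80% to 10.6% in DMSO at 72 h, and its part in this difference was not tested. Relative to RNA, in the translational efficiency test, XPO5 was at -0.63 (SE 0.45, edgeR adjusted p = 0.533).

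HMGA2 footprints at 6 h numbered 9, 5 and 10 with actD and 29, 26 and 1 with DMSO, or 18.6, 13.2 and 22.5 CPM against 29.6, 33.8 and 2.62 CPM. One DMSO library was the lowest of all, the groups overlapped, and the difference was -0.35 (SE 0.74). At 72 h the counts were 12, 8 and 18 against 12, 6 and 0, with a difference of -0.02 (SE 0.51), whose sign was positive under RLE scaling (0.03) and without the filter on low counts (0.14). At 2 weeks they were 24, 16 and 15 against 20, 30 and 16, with a difference of -0.28 (SE 0.27). DICER1 had 52, 25 and 46 counts with actD and 29, 10 and 6 with DMSO at 72 h, which scaled to 77.6, 68.0 and 54.7 CPM against 65.6, 33.5 and 74.6 CPM, a difference of 0.26 (SE 0.39) with overlap, and its difference at 2 weeks was -0.03 (SE 0.28).

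Translational efficiency, the footprint difference relative to the RNA difference, gave no call among these genes: 0 of 1 at 6 h (0.0% of 951 genes), 0 of 3 at 72 h (0.433% of 2311) and 0 of 2 at 2 weeks (0.0% of 1441), by edgeR's test of the assay-by-treatment interaction, with no unadjusted p under 0.05 and no call by DESeq2. HMGA2 was at -0.18 (SE 0.75), -0.03 (SE 0.60) and -0.41 (SE 0.28) at 6 h, 72 h and 2 weeks. DICER1 was at 0.20 (SE 0.43) at 72 h and -0.20 (SE 0.29) at 2 weeks. The other 7 genes had 0 to 19 footprints per library and were not tested: LIN28B, for example, had 11, 4 and 19 counts with actD and 4, 6 and 0 with DMSO at 72 h, DIS3L2 2, 2 and 5 against 5, 3 and 3, DGCR8 10, 7 and 12 against 5, 6 and 1, AGO2 5, 4 and 2 against 1, 1 and 0, and DROSHA 4, 4 and 5 against 4, 3 and 1.

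**Figure D4:**
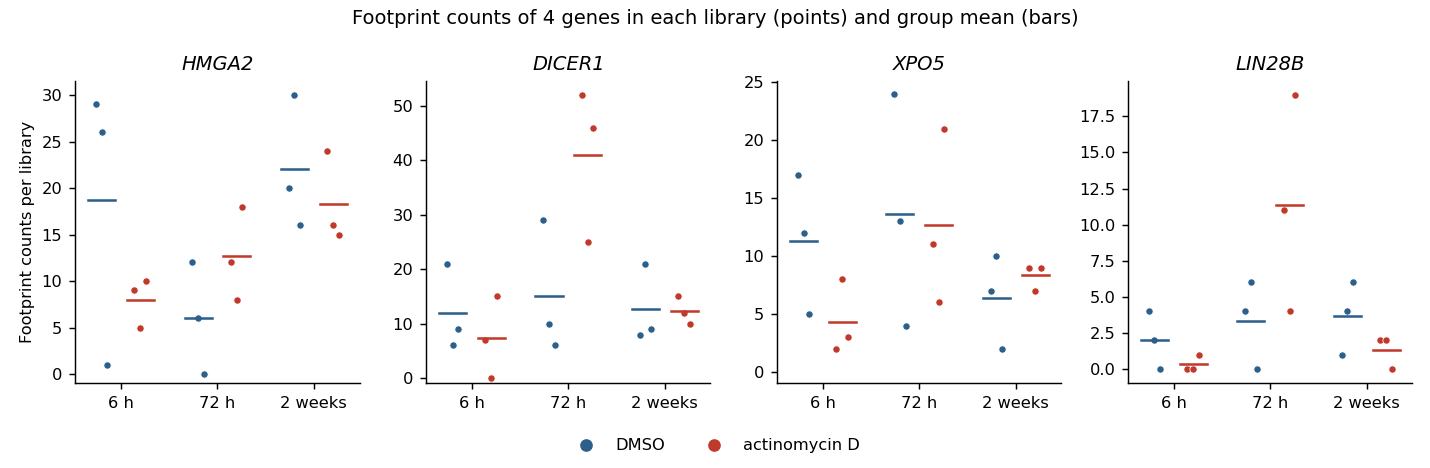
Footprint counts per library, not scaled for depth, of HMGA2, DICER1, XPO5 and LIN28B at 6 h, 72 h and 2 weeks (points, with group means as bars; blue DMSO, red actD). Most libraries hold fewer than 30 counts of each gene, and the highest is 52 for DICER1 at 72 h, where the actD libraries were on the whole deeper.

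The wider pathway was read from a list of 24 other genes of microRNA processing, silencing and decay. None was called in RNA by edgeR's test: 0 of 24 at each time. DESeq2 called 2 of 24 at each time, all lower: SND1 and DDX17 at 6 h, SND1 and HNRNPA1 at 72 h, and SND1 and TNRC6B at 2 weeks. Among all genes, DESeq2 called 204 of 22650 at 6 h, 607 of 21129 at 72 h and 198 of 21123 at 2 weeks. Of these calls, 60 at 6 h, 128 at 72 h and 87 at 2 weeks were higher, and the rest lower. The single edgeR fit over 18 libraries called 4 of 24 at 72 h, all lower: SND1, HNRNPA1, TNRC6B and TUT7, a uridylating enzyme. Among all genes, that fit called 1408 of 24803 at 72 h, 286 of them higher and the rest lower. At an unadjusted p under 0.05, 4 were lower and 1 higher at 6 h (8.21% of all genes in either direction), 4 lower at 72 h (13.1%) and 3 lower at 2 weeks (8.93%). Differences were negative for 12 of 24 at 6 h, 18 of 24 at 72 h and 18 of 24 at 2 weeks, with medians of -0.01, -0.25 and -0.13. The medians of all genes tested were 0.02, 0.02 and -0.02, and the share of all genes with negative differences was not counted. The smallest p-values belonged at 6 h to SND1, to DDX17, a helicase of the Microprocessor (-0.67, SE 0.18, edgeR adjusted p = 0.438, DESeq2 adjusted p = 0.0427), and to ZSWIM8, which directs microRNA decay (-0.38, SE 0.15). At 72 h they belonged to SND1, HNRNPA1, an RNA-binding protein (-0.82, SE 0.20, edgeR adjusted p = 0.257, DESeq2 adjusted p = 0.0115), and TNRC6B, a scaffold of silencing (-0.65, SE 0.20). At 2 weeks they belonged to SND1, TNRC6B (-0.85, SE 0.14, edgeR adjusted p = 0.221, DESeq2 adjusted p = 1.4e-04) and MOV10, a helicase that works with AGO2 (-0.41, SE 0.16).

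SND1, a nuclease-domain protein found in the silencing complex (ENSG00000197157.10, chr7:127652180-128092609, plus strand, 440.4 kb long), was the one gene of this list called by edgeR's test fitted to a single table, in footprints at 72 h, where 10 of the 24 were tested. There 3.79% of all 2426 genes tested were called. At an unadjusted p under 0.05, 4 of these 10 were lower and 1 higher, against 27.3% of all genes tested. SND1 footprints at 72 h fell from 154, 124 and 187 CPM with DMSO (68, 37 and 15 counts) to 8.96, 10.9 and 23.8 CPM with actD (6, 4 and 20 counts), a log2 difference of -3.31 (SE 0.47, edgeR adjusted p = 0.0417). SND1 passed the filter on low counts there by its DMSO libraries, where it was higher, and not by its actD libraries alone. The filter thus favored a negative difference, and the call is not independent of it. The adjusted p was 0.0409 without actD replicate 3 and 0.0403 without DMSO replicate 3, and the call was lost without any of the other 4 libraries in turn (0.13 to 0.188, at -3.50 to -2.99). In RNA SND1 was at 92.3 to 122 CPM with actD against 172 to 188 CPM with DMSO at 6 h, at 13.5, 14.5 and 41.1 against 102, 139 and 171 CPM at 72 h, and at 124, 89.3 and 99.5 against 199, 204 and 214 CPM at 2 weeks. The groups were apart each time, at -0.75 (SE 0.13, edgeR adjusted p = 0.182), -2.57 (SE 0.48, edgeR adjusted p = 0.199) and -0.98 (SE 0.14, edgeR adjusted p = 0.138), and the DESeq2 adjusted p-values were 4.6e-04, 2.9e-05 and 6.2e-07. Its translational efficiency at 72 h was at -0.83 (SE 0.69, edgeR adjusted p = 0.594). Its footprint differences at 6 h and 2 weeks were -0.58 (SE 0.36) and -0.78 (SE 0.29, edgeR adjusted p = 0.562).

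Of 17 other let-7 targets, none was called in RNA by edgeR's test at 6 h, at 72 h (17 tested each) or at 2 weeks (16 tested). At an unadjusted p under 0.05, 1 of 17 was higher at 72 h (PLAGL2), against 13.1% of all genes in either direction. At 2 weeks 2 of 16 were lower (IGF2BP1 and MYCN), against 8.93%. The list's median differences at 6 h, 72 h and 2 weeks were -0.04, -0.21 and -0.01. Named at 6 h by the rule of small p-values were the cyclin CCND2 (0.45, SE 0.23) and the stem-cell ubiquitin ligase TRIM71 (-0.17, SE 0.12), and at 72 h the transcription factor PLAGL2 (0.50, SE 0.21) and the RNA-binding proteins IGF2BP3 (-0.65, SE 0.29) and IGF2BP2 (-0.58, SE 0.30). At 2 weeks they were IGF2BP1 (-0.40, SE 0.17), MYCN (-0.27, SE 0.11) and IGF2BP3 (-0.55, SE 0.24), each with an edgeR adjusted p of at least 0.546.

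Reads of the let-7 genes themselves were present in the footprint libraries. Their share of all counts ran from 0.152% in DMSO replicate 1 to 16.1% in actD replicate 1 at 6 h, from 0.00524% to 0.150% at 72 h and from 0.0315% to 0.483% at 2 weeks. MicroRNA genes as a whole took 4.67% to 71.4%, 1.18% to 5.89% and 1.87% to 8.66% of the counts at these times. The share of let-7 thus varied by over 10-fold between libraries of 1 time, and at 6 h and 2 weeks the treatments overlapped (exact two-sided permutation p = 0.5 and 0.9). Without DMSO replicate 1 the remaining DMSO libraries at 6 h, 5.83% and 7.82%, lay within the actD range of 1.86% to 16.1%.

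At 72 h the let-7 share was 0.0191%, 0.0226% and 0.150% with actD and 0.00975%, 0.0107% and 0.00524% with DMSO. All actD libraries were higher, at 0.0640% ± 0.0748 against 0.00856% ± 0.00291 (SD, n = 3 each; exact two-sided permutation p = 0.1, the smallest that 3 against 3 can give, and 0.9 after adjustment over 9 comparisons of shares). Within microRNA counts the let-7 share overlapped, at 0.908%, 0.654% and 5.37% against 0.824%, 0.267% and 0.0890%. The counts behind these shares were 150, 94 and 1043 with actD and 43, 23 and 8 with DMSO. Of the 12 loci, MIRLET7A1, MIRLET7A2 and MIRLET7A3 passed the filter, with 32, 19 and 208 counts of MIRLET7A1 against 10, 5 and 2. All 3 passed by their actD libraries, where they were higher, and none by its DMSO libraries alone. These loci were thus tested after a filter that favored a positive difference. Their log2 differences were 2.48 (SE 0.78), 2.59 (SE 0.71) and 2.57 (SE 0.81), with edgeR adjusted p-values of 0.0997, 0.078 and 0.101, and each had an unadjusted p under 0.05, as had 27.3% of all genes tested; the 3 loci stand for 1 mature strand. Without actD replicate 3, the library with most of the counts, they were 1.34, 1.61 and 1.37 (edgeR adjusted p = 0.0462, 0.0409 and 0.0503). Over 4 alternatives with all libraries kept (RLE scaling, DESeq2, no filter and a replicate block) they were 1.84 to 2.62, 2.04 to 2.74 and 1.91 to 2.71. The edgeR or DESeq2 adjusted p in these fits was 0.0148 to 0.15, 0.00982 to 0.146 and 0.0134 to 0.15. It was under 0.05 in 1, 2 and 1 of the 4 fits. At 6 h 11 of the 12 loci passed the filter, all with positive differences (1.02 to 2.01) and none with an unadjusted p under 0.05. These loci are not separate observations, since some share a strand and all share the same libraries. Summed let-7 counts at 6 h were 729, 54539 and 27214 in DMSO and 206757, 28173 and 6773 in actD.

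The 3 let-7a loci are not independent measurements, since they encode the same mature strand, shown above. At 6 h MIRLET7A3 had 1.02 to 1.03 times the counts of MIRLET7A1 in all 6 libraries, MIRLET7A2 1.07 to 1.27 times, and MIRLET7F2 1.04 to 1.20 times those of MIRLET7F1 in the 5 libraries with at least 100 counts of each. The mean count per library at 6 h was 13260 for MIRLET7A1, 2542 for MIRLET7E, 2356 for MIRLET7F1, 1813 for MIRLET7B, 1605 for MIRLET7C, 638 for MIRLET7G, 410.5 for MIRLET7I and 85.7 for MIRLET7D, and MIR98 had 9.17. At 2 weeks MIRLET7A1 had 366, MIRLET7E 65.5, MIRLET7F1 63.0, MIRLET7C 53.2, MIRLET7B 34.7, MIRLET7G 20.7 and MIRLET7I 11.5, and at 72 h MIRLET7A1 had 46.0, MIRLET7F1 21.7 and MIRLET7E 15.

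**Figure D5:**
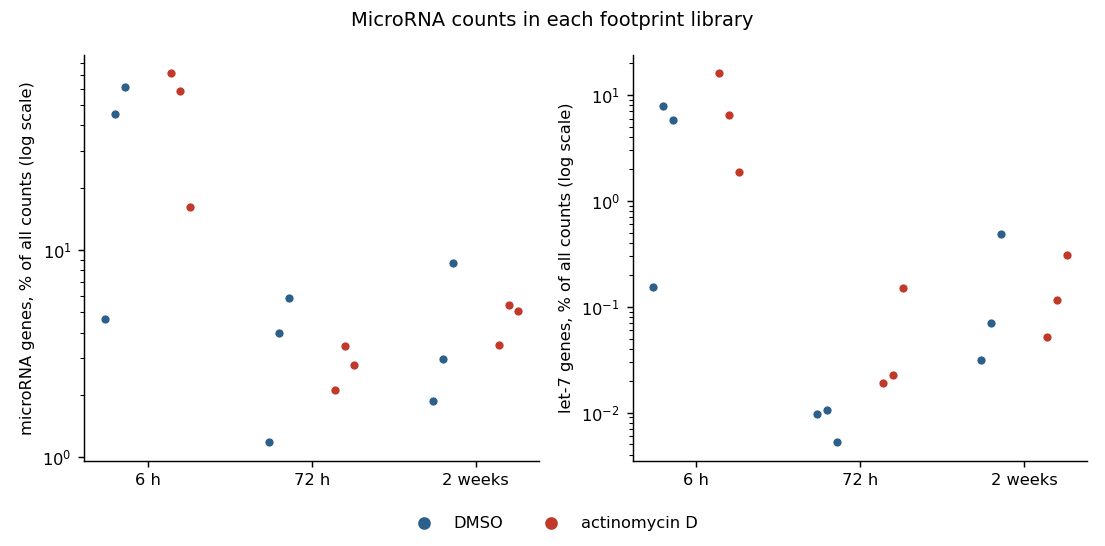
Share of all counts taken by microRNA genes (left) and by the 12 let-7 genes (right) in each of the 18 footprint libraries, on log axes (blue DMSO, red actD). The let-7 share is highest at 6 h, where it reaches 16.1%, and at 72 h the 3 actD libraries (0.0191% to 0.150%) lie above the 3 DMSO libraries (0.00524% to 0.0107%).

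Genes with the most similar RNA pattern were found by Pearson's r of log2 CPM, centred within each time, over the 18 RNA libraries and 12291 protein-coding genes. These libraries share their treatments, depth and preparation, so r is only a description. XPO5 was most like PSMD1 (r = 0.971), a proteasome subunit, and RRP12 (r = 0.962), a ribosome assembly factor. DIS3L2 was most like KIAA0556 (r = 0.957) and AKAP13 (r = 0.948), AGO2 most like AS3MT (r = 0.969) and MTMR4 (r = 0.953), DROSHA most like CUL1 (r = 0.936) and DDX27 (r = 0.931), and DGCR8 most like DBF4B (r = 0.947) and SELENOO (r = 0.92). TARBP2 was most like SCAP (r = 0.921) and FZD2 (r = 0.913), and LIN28B most like MBD2 (r = 0.929) and PNO1 (r = 0.927). The closest matches of HMGA2 (NGDN, r = 0.851, and CENPK, r = 0.776) and DICER1 (HSPB11, r = 0.782, and TFAM, r = 0.759) were less alike, and LIN28A lay under the level of 1 CPM required.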

How the data were processed

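The study measured total RNA and ribosome footprints in WiT49 cells at 3 times, with 3 libraries a group. The authors deposited 6 tables of whole numbers, 1 column per library without pooling, which were read as estimated counts (expected counts) of each gene. The submitters' processing notes name HISAT2, StringTie and hg38 without roles or versions, and the annotation, the handling of reads with several places and the use of strand are not given in the sources used here. Small values step by about 2.71 and 2.67 counts in the 6 h and 2-week RNA tables, so counts are not fragments there. Per the labels' protocols, RNA came from 2 extraction kits and 2 stranded total RNA kits, not assigned to libraries, and a small RNA kit followed ribosomal RNA depletion for the footprints.

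Of the identifiers, 99.3% matched GENCODE release 29 without their version. Each table was fitted alone with edgeR 4.0.16 (R 4.3.3): TMM scaling, filterByExpr, the quasi-likelihood test and Benjamini-Hochberg adjustment over all genes, called at an adjusted p under 0.05. CPM use TMM-scaled totals. Standard errors come from the fold change and its F statistic. The functions were tested on simulated counts. Translational efficiency and the time effect were interactions over 12 libraries. Alternatives were RLE scaling, DESeq2 1.42.0, no filter, leaving out each library, a replicate block, 1 fit over 18 RNA libraries, no mitochondrial genes, values divided by the step, coding genes only, and 2-week RNA taken by title. Replicate numbers were not taken to pair libraries: actD and DMSO deviations did not correlate above 0.1 for every number in any table. RNA and footprint libraries of the same number did so for actD at 72 h (r = 0.182, 0.193 and 0.421) and DMSO at 2 weeks (0.13, 0.106 and 0.132) but not in the other 4 groups, and the translational efficiency fits treated them as unpaired. No libraries were duplicates (chi-square per degree of freedom at least 7.39 within groups). The 10 genes, the lists and the rules were chosen with earlier results of these data known. From the lists, genes were named that passed a test or had the 3 smallest p-values at a time in RNA, let-7 genes with a mean of at least 10 counts in a footprint table, and the 2 genes most like each member. For that comparison genes had a mean of at least 1 CPM, and 0.5 CPM was added before the log2. A marker and a let-7 target of the lists are not reported here.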

Additional observations from a re-analysis of the deposited data

How the results depend on the processing

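The count of called genes among the 10 stayed at 0 in all 10 comparisons and alternatives except 2: it was 1 in RNA at 72 h (DIS3L2) in the fit over 18 libraries, and it ranged from 0 to 1 (XPO5, without actD replicate 3) over the fits of footprints at 72 h that left out a library. With the replicate block it was 0 in every comparison; that block also took the calls among all genes in footprints at 72 h from 92 to 0, and the SND1 call with it (-3.48, edgeR adjusted p = 0.142), and in RNA at 72 h all 6 libraries were closest to their own number, a hint from the data only. By title, 6 rather than 4 of the 10 were higher in RNA at 2 weeks. Over all genes, DESeq2 called 204, 607 and 198 in RNA at 6 h, 72 h and 2 weeks where edgeR called 0, 1 and 0, 176 rather than 4 between 72 h and 6 h, 12 rather than 0 in footprints at 6 h, and in translational efficiency 1 at 6 h and 3 at 2 weeks rather than 0, and 76 higher and 30 lower at 72 h rather than 10 in all. In footprints at 72 h edgeR called 321 rather than 92 without the filter and 182 among coding genes alone. Leaving out 1 library took these 92 calls to 0 for each library of the numbers 1 and 2, to 55 without DMSO replicate 3 and to 282 without actD replicate 3. The 10 calls of translational efficiency at 72 h ranged from 7 to 41 in such fits and were 0 with the replicate block, and translational efficiency at 2 weeks had 27 calls rather than 0 by title.

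Differences near 0 changed sign. For HMGA2 in footprints at 72 h the difference was 0.031 with RLE scaling, 0.10 with DESeq2, 0.14 without the filter and 0.056 with the replicate block; in translational efficiency at 72 h it was 0.018 with RLE scaling, 0.19 without the filter and 0.10 with the block, and at 6 h 0.057 with the block. LIN28A in RNA at 6 h was -0.065 with the block, and DICER1 in translational efficiency at 2 weeks 0.085 by title. Without the filter the median of all genes moved from 0.07 to 0.55 in footprints at 72 h and from 0.11 to -0.42 at 6 h.

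Leaving out 1 library turned signs within these ranges. In RNA, AGO2 ran from -0.16 to 0.028 at 6 h and from -0.035 to 0.16 at 2 weeks, DGCR8 from -0.21 to 0.10 at 6 h, DICER1 from -0.16 to 0.043 at 72 h, DROSHA from -0.30 to 0.10 at 72 h, HMGA2 from -0.48 to 0.13 at 6 h, at 72 h from -0.32 to 0.14 and at 2 weeks from -0.010 to 0.18, and LIN28A from -0.32 to 0.53 at 6 h and -0.81 to 0.27 at 2 weeks. Between 72 h and 6 h, DROSHA ran from -0.14 to 0.28, HMGA2 from -0.28 to 0.33 and LIN28B from -0.13 to 0.17. In footprints, DICER1 ran from -0.073 to 0.51 at 72 h and -0.13 to 0.22 at 2 weeks, and HMGA2 from -0.20 to 0.47 at 72 h. In translational efficiency, DICER1 ran from -0.13 to 0.41 at 72 h and -0.32 to 0.071 at 2 weeks, and HMGA2 from -0.58 to 0.15 at 6 h and -0.28 to 0.39 at 72 h. The cause was not tested. Of 1005 refitted differences of named genes, 930 kept their direction and side of the threshold, 53 changed direction, 17 passed the threshold only in the alternative and 5 only in the result reported. Footprint depth, 23134 to 283435 protein-coding counts per library, left 7 of the 10 genes untested in footprints at every time.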
